A study of Mus musculus with 14 samples.

Results

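Mast cells were followed in the mouse colon through 10 genes, namely 6 genes of the granule protease families (Mcpt1, Mcpt2, Mcpt4, Cma1, Tpsb2 and Tpsab1), the granule carboxypeptidase Cpa3, the IgE receptor chains Fcer1a and Ms4a2, and the histamine-forming enzyme Hdc. Members were found through the transcript accession of each array probe. By this route 9 of the 10 genes had a probe, out of 19096 genes with a matched probe, and no probe matched Tpsab1, which the RefSeq table used here annotates as a transcribed pseudogene. Whole-colon total RNA came from 14 female C57BL/6 mice aged 4 to 6 months and kept on chow. The control mice, called Flox, have floxed copies of Nr3c1, which encodes the glucocorticoid receptor (GR). GR iKO mice are Flox mice crossed with Villin-cre mice, a transgene whose promoter drives Cre in the intestinal epithelium, and mast cells are not its target. Each genotype was given regular water (4 Flox and 4 GR iKO mice) or water with 2.5% dextran sodium sulfate (DSS), which injures the colonic epithelium, for 7 days (3 Flox and 3 GR iKO mice).

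Mast cells store preformed mediators in granules, above all chymases, tryptases, carboxypeptidase and histamine bound to proteoglycan, and release them when IgE bound to its high-affinity receptor is crosslinked. In the mouse, mucosal mast cells are known for Mcpt1 and Mcpt2, and connective tissue mast cells of the submucosa and muscle layers for Mcpt4, Cma1, tryptases and Cpa3. Histamine is also formed by basophils and by immature myeloid cells and neutrophils, so Hdc is the least cell-restricted gene of the set.

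Values are log2 signals of the highest-signal probe of a gene minus the 75th percentile of all probes on that array, so a level of −4 lies 4 log2 units below that percentile. Levels of different genes come from different probes and are not set against each other. Differences were tested with limma over 29523 probes, and "called" means an adjusted p under 0.05. Before scaling, the 75th percentile lay between 262 and 1003 signal units, and between 62.6 and 71.3% of probes per array rose well above background. The 2 DSS groups varied more between mice (median SD over probes 0.26 and 0.34) than the water groups (0.18 and 0.17). Relative to that percentile, spike-in signal was higher on all 6 DSS arrays than on the 8 water arrays. Scaling to the spike-ins in place of the percentile therefore moved the median difference of all tested probes between DSS and water. It went from −0.09 to −2.20 in Flox and from −0.02 to −0.88 in GR iKO mice. Directions below are therefore relative to the bulk of the probes. Where a called difference given below turned with spike-in scaling, it is named or counted. As a check of the labels, Nr3c1 signal in GR iKO colon was 57.3% of that in Flox colon on water and 56.1% on DSS, with no overlap between genotypes in either (exact two-sided permutation test, p = 0.0286, n = 4 and 4, and p = 0.1, n = 3 and 3, the smallest values these group sizes allow).

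Not every member could be measured in whole colon. Mcpt1, Mcpt4, Hdc and both Cma1 probes were well above background on all 14 arrays, and Cpa3 and Fcer1a on 12 each. Both dim Cpa3 arrays were Flox controls, so Cpa3 was measured in 2 of the 4 mice of that group. Mcpt2 was well above background on 3 arrays, Tpsb2, the main mouse granule tryptase, on 2, and Ms4a2, the receptor's beta chain, on none. Probes had to be well above background on 3 arrays to be tested, which left 7 members. Of genes that define mast cells most closely, Mrgprb2 was well above background on no array and Kit, the stem cell factor receptor, had no matched probe, so the label rests on granule genes and Fcer1a. In bulk RNA, fewer mast cells and less RNA per cell cannot be told apart.

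The chymase members are close relatives. In the reference gene order of chromosome 14, Cma1 is followed by Cma2, Mcpt1, Mcpt2, Mcpt9, Mcpt4 and Mcpt8. The RefSeq promoter windows (GRCm38.p6, 250 bases before to 50 bases after the annotated start) are shown for the measured genes that the results turn on: Mcpt4 and Mcpt1, whose windows were 81.0% identical, Cma1, whose window was 48.2% identical to that of Mcpt4, and Cpa3 and Hdc. Capitals mark the GATA motif, GATAA or TTATC on the other strand.
Mcpt4, chr14:56062261-56062560, minus strand: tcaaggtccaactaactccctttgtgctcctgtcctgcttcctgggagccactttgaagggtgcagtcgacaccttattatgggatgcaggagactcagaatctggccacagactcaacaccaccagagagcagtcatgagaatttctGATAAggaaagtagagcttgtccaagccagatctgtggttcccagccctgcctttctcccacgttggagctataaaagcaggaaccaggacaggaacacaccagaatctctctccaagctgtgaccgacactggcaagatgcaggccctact
Mcpt1, chr14:56017714-56018013, plus strand: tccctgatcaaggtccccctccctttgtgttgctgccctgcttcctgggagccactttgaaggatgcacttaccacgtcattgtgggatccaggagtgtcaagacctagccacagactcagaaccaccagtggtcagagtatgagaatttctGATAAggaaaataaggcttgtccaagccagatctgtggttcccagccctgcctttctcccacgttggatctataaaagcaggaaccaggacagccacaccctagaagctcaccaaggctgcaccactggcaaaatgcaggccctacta
Cma1, chr14:55944626-55944925, minus strand: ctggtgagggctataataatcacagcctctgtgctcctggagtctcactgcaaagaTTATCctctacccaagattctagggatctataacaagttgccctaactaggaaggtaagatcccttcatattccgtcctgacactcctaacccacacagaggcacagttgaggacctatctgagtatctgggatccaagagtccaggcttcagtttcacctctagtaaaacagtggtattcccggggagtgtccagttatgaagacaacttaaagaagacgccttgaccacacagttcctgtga
Cpa3, chr3:20242132-20242431, minus strand: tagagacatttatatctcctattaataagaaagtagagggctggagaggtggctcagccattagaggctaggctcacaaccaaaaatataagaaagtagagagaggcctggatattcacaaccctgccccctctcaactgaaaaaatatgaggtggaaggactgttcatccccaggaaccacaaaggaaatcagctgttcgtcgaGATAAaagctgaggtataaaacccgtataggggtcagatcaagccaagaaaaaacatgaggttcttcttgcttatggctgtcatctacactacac
Hdc, chr2:126618629-126618928, minus strand: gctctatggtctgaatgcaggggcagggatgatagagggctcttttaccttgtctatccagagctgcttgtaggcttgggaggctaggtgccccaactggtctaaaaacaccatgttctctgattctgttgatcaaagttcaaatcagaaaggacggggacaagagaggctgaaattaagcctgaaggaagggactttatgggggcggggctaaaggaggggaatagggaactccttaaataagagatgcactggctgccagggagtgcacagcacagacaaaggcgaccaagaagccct

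A GATAA match on either strand was present in 6 of the 7 member windows that the table held (those of Cma1, Cpa3, Fcer1a, Mcpt1, Mcpt4 and Ms4a2, not that of Hdc), against 25.4% of 32851 promoter windows of the same length. Relative to the annotated start it began at −102 in Mcpt4, −98 in Mcpt1, −45 in Cpa3 and −194 in Cma1. The E-box letters CANNTG were found in 4 member windows (Cma1, Cpa3, Fcer1a and Hdc) and in 72.3% of all windows. The compared windows were not matched for base composition, and the Mcpt1 and Mcpt4 windows, 81.0% identical, do not count as separate cases. These matches describe the letters only. Whether a chymase probe also binds RNA of a related gene was not tested.

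In Flox mice, DSS changed 4 of the 7 tested members. Hdc rose 22.1-fold, Mcpt4 2.16-fold and Cpa3 2.48-fold relative to the bulk of the probes, while Cma1 fell 2.67-fold, and with spike-in scaling Mcpt4 and Cpa3 turned lower. The Cpa3 value is set against Flox controls of which 2 of 4 were not well above background. DSS changed 52.6% of all tested probes in Flox mice, so a count of 4 of 7 is near the background of this comparison. In GR iKO mice only Hdc was called, 79.6-fold higher, against 44.5% of all probes called. The median difference of the 7 members was 0.50 on the log2 scale in Flox and 0.37 in GR iKO mice, where all tested probes had medians of −0.09 and −0.02.

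**Figure D1:**
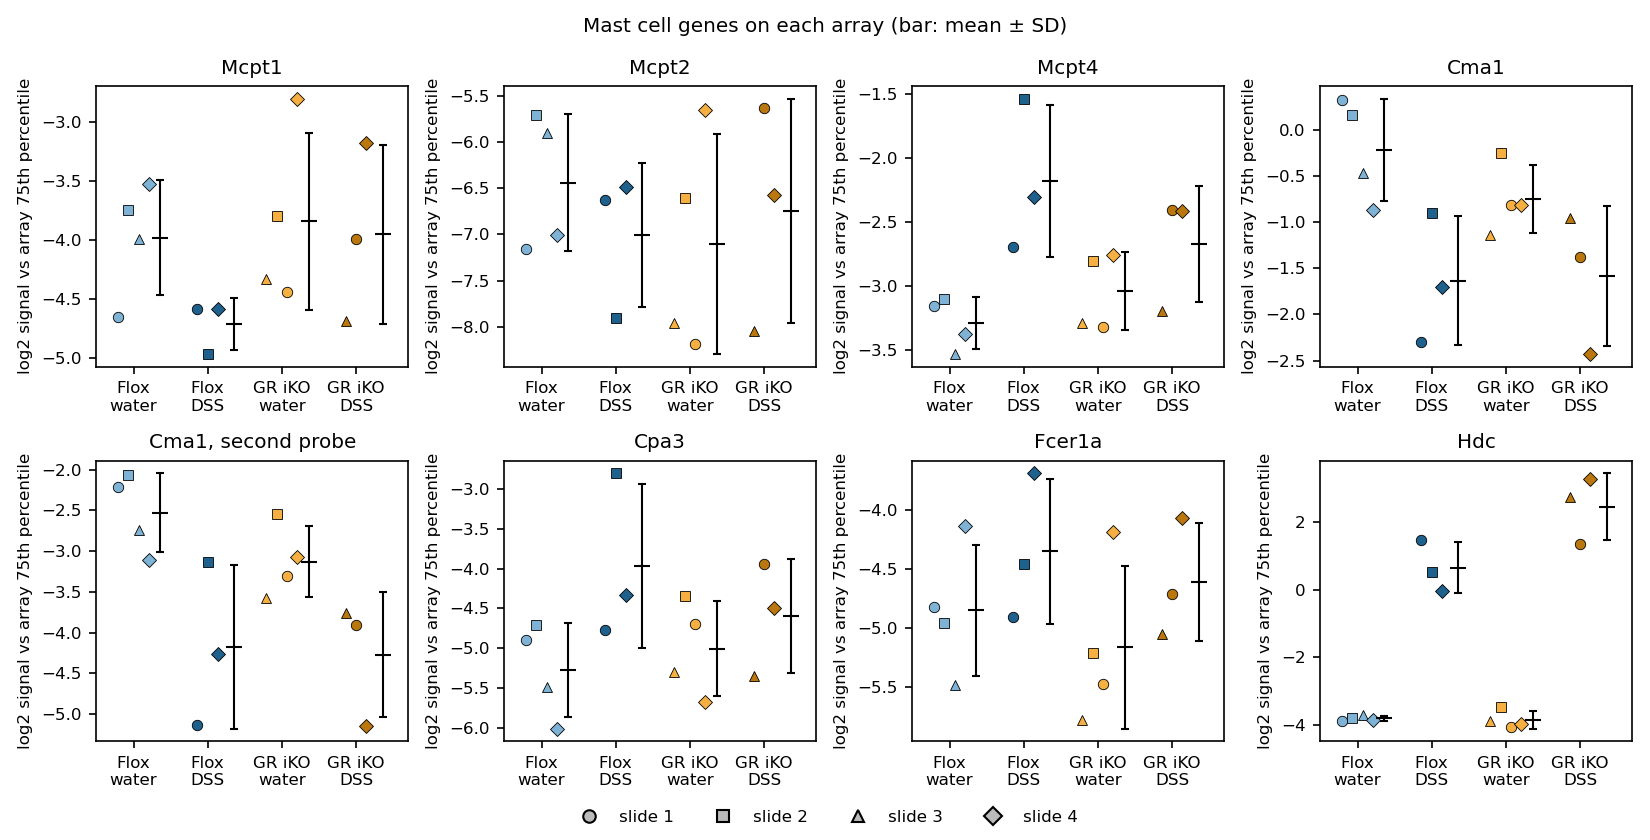
Levels of the 7 tested members, Cma1 with both probes, on each array (y axis, log2 signal relative to the array's 75th percentile, a separate scale per panel; x axis, group). Points are mice, symbols give the slide, and bars show the mean ± SD (n = 4 on water, n = 3 on DSS). Hdc on DSS lay above every water value in both genotypes, Mcpt4 on DSS lay above every water value in Flox mice, and the arrays of slide 4 were the highest for Fcer1a in each group.

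Among the connective tissue type proteases, Mcpt4, a chymase that cleaves angiotensin and matrix proteins, had levels of −3.15, −3.10, −3.53 and −3.38 in the 4 Flox mice on water and of −2.70, −1.54 and −2.31 in the 3 Flox mice on DSS. The GR iKO levels were −3.29, −2.81, −3.32 and −2.76 on water and −3.20, −2.41 and −2.41 on DSS. Thus all Flox mice on DSS lay above all Flox mice on water, whereas in GR iKO mice 1 of the 3 DSS values lay within the water range. The log2 difference was 1.11 ± 0.28 (SE, adjusted p = 0.00526, limma) in Flox and 0.37 ± 0.28 (adjusted p = 0.306) in GR iKO mice. The difference between these effects was −0.74 ± 0.39 and was not called (adjusted p = 0.334). Within the 3 slides that held both Flox groups, Mcpt4 was higher on DSS by 0.46, 1.56 and 1.07. With spike-in scaling the Flox difference turned to −1.0 (adjusted p = 0.033), which was 1.20 above the median of all probes.

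Cma1, also a gene of connective tissue mast cells, moved the opposite way. Its levels were 0.31, 0.15, −0.47 and −0.87 in Flox mice on water and −2.30, −0.90 and −1.70 on DSS. For GR iKO mice they were −1.14, −0.25, −0.81 and −0.82 on water and −0.95, −1.38 and −2.43 on DSS. The Flox groups did not overlap, although the highest DSS value and the lowest water value were close together, and the GR iKO groups overlapped. Cma1 fell by 1.42 ± 0.41 on the log2 scale in Flox mice (adjusted p = 0.012), and the difference in GR iKO mice was −0.83 ± 0.41 (adjusted p = 0.122). Without Flox DSS replicate 1 the Flox call was lost (−1.08, adjusted p = 0.0655). The second Cma1 probe gave −1.65 ± 0.47 (adjusted p = 0.0104) in Flox and −1.14 ± 0.47 (adjusted p = 0.0641) in GR iKO mice, and in both genotypes its DSS values all lay below its water values. Its Flox call was lost with normexp background correction (−0.20, adjusted p = 0.4) and without Flox DSS replicate 1 (−1.17, adjusted p = 0.0595), and its GR iKO difference was called in 5 of 27 alternatives, among them quantile normalization (adjusted p = 0.0496) and the deposited value table (adjusted p = 0.0487). Both probes stayed lower in both genotypes with spike-in scaling.

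Cpa3, the carboxypeptidase that trims peptides after chymase cleavage, was at −4.89, −4.70, −5.49 and −6.01 in Flox mice on water and −4.77, −2.81 and −4.33 on DSS. The GR iKO mice were at −5.30, −4.35, −4.69 and −5.67 on water and −5.35, −3.94 and −4.49 on DSS. The highest of the 14 values belonged to Flox DSS replicate 2, and the groups overlapped in both genotypes. Its log2 difference was 1.31 ± 0.51 in Flox mice (adjusted p = 0.0455) and 0.41 ± 0.51 in GR iKO mice (adjusted p = 0.54). The Flox call lay close to the threshold. It was lost without any 1 of Flox control replicates 1, 3 and 4, Flox DSS replicates 2 and 4, GR iKO control replicates 1 and 3, and GR iKO DSS replicate 4 (adjusted p up to 0.228, with a difference of 0.73 without Flox DSS replicate 2), and it turned to −0.80 with spike-in scaling (adjusted p = 0.181).

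Because Mcpt4 and Cma1 moved in opposite directions, their log2 ratio within each array, which a scaling factor per array cannot change, was compared after these values had been seen. The ratio of Mcpt4 to Cma1 was −3.47, −3.25, −3.06 and −2.51 in Flox mice on water and −0.40, −0.64 and −0.60 on DSS. Among GR iKO mice it was −2.15, −2.55, −2.51 and −1.94 on water and −2.25, −1.03 and 0.01 on DSS. Thus all 3 Flox mice on DSS lay above the Flox water range, as did 2 of the 3 GR iKO mice on DSS above theirs. The shift was 2.53 in Flox (exact permutation test, p = 0.0286, the smallest possible with 3 and 4 mice, and 0.0762 after adjustment over the 16 ratio comparisons made) and 1.20 in GR iKO mice (exact permutation test, p = 0.0857, adjusted 0.171). Mcpt4 and each Cma1 probe had already separated the Flox groups, in opposite directions, so their Flox ratios could not overlap by either probe. The Flox p-values of these ratios therefore add no support. With the second Cma1 probe, the GR iKO ratio was 0.29, −0.26, −0.02 and 0.32 on water and 0.56, 1.49 and 2.74 on DSS, so that all 3 DSS values lay above the water range. By that probe the shift was 2.76 in Flox and 1.51 in GR iKO mice, without overlap in either (exact permutation test, p = 0.0286, adjusted 0.0762 in each). Normexp background correction, tried on the ratios after the data were seen, lowered the Flox shifts to 1.78 for the first and 1.10 for the second Cma1 probe, and the GR iKO shifts to 0.86 and 0.56.

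Cpa3 relative to Cma1 behaved similarly in Flox mice, with −5.21, −4.86, −5.02 and −5.14 on water and −2.47, −1.90 and −2.62 on DSS (shift 2.72, exact permutation test, p = 0.0286, adjusted 0.0762, and 1.87 with normexp), although 2 of the 4 Flox controls were dim for Cpa3. In GR iKO mice the ratio was −4.16, −4.09, −3.88 and −4.85 on water and −4.40, −2.57 and −2.06 on DSS, and the groups overlapped (shift 1.24, exact permutation test, p = 0.171, adjusted 0.305). On DSS the genotypes overlapped for the ratios to either Cma1 probe. On water, Cpa3 relative to Cma1 was 0.81 higher in GR iKO than in Flox mice, without overlap. Mcpt4 relative to the second Cma1 probe was 0.85 higher there, also without overlap (exact permutation test, p = 0.0286, adjusted 0.0762 in each). By the first probe Mcpt4 relative to Cma1 was 0.79 higher, with overlap (exact permutation test, p = 0.0857, adjusted 0.171). The smaller GR iKO shifts thus started from higher water ratios.

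**Figure D2:**
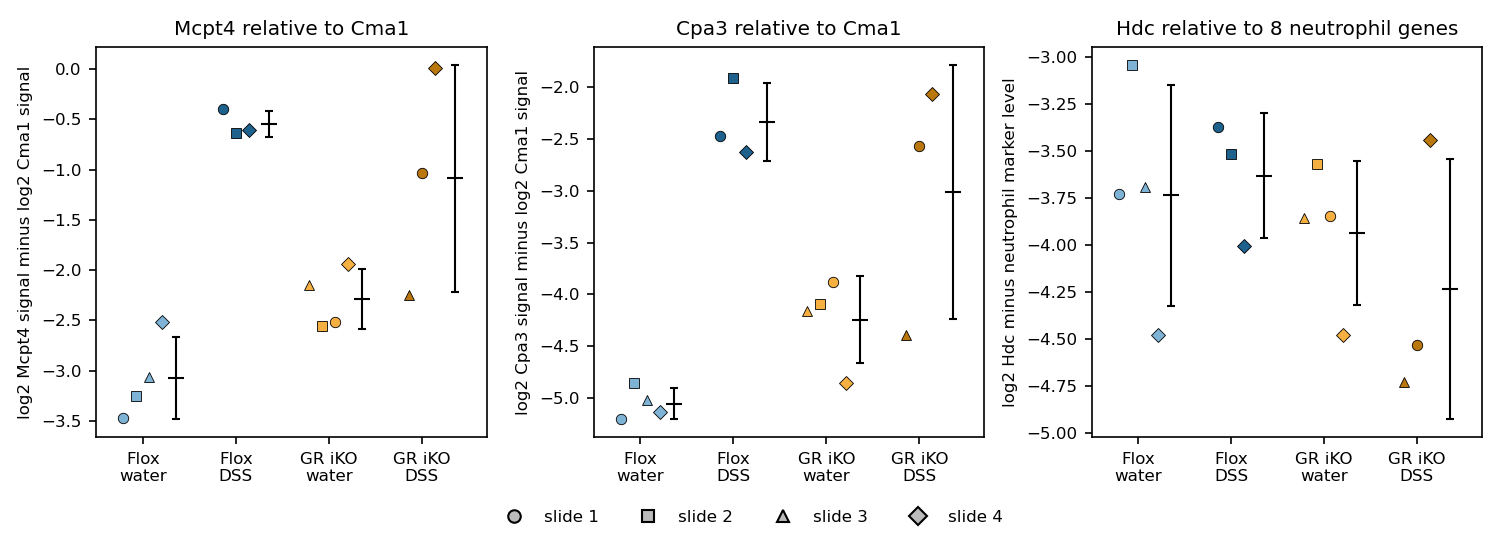
Within-array log2 differences on each array (y axis, log2 units, a separate scale per panel; x axis, group): Mcpt4 minus Cma1, Cpa3 minus Cma1, and Hdc minus the mean level of 8 neutrophil genes. Points are mice, symbols give the slide, and bars show the mean ± SD (n = 4 on water, n = 3 on DSS). The first ratio rose from a mean of −3.07 to −0.55 in Flox mice, and Hdc relative to the neutrophil genes ranged from −4.73 to −3.04 over the 14 arrays.

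Mcpt1, the mucosal chymase that marks intraepithelial mast cells, was not called in any comparison. It was at −4.66, −3.75, −3.99 and −3.53 in Flox mice on water and −4.58, −4.97 and −4.59 on DSS. In GR iKO mice it was at −4.33, −3.80, −4.44 and −2.81 on water and −4.69, −3.99 and −3.18 on DSS. The 3 Flox DSS mice lay near or below the lower end of the Flox water range, and the GR iKO values spread over more than 1.5 log2 units in both treatments. The log2 difference was −0.73 ± 0.42 in Flox mice (adjusted p = 0.165) and −0.11 ± 0.42 in GR iKO mice (adjusted p = 0.853), and GR iKO against Flox on DSS gave 0.76 ± 0.45 (adjusted p = 0.29). With slide as a block the Flox difference was called (−0.87, adjusted p = 0.0383), as it was with spike-in scaling (−2.84), while normexp background correction turned it to 0.19 (adjusted p = 0.552). Mcpt2, the other mucosal protease, ranged from −8.19 to −5.63 over the 14 arrays, around the detection limit, and its differences are not given. Tpsb2 ranged from −6.69 to −4.84 and Ms4a2 from −8.53 to −6.74, and neither was tested.

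Fcer1a, the IgE-binding chain of the receptor, was at −4.82, −4.95, −5.48 and −4.14 in Flox mice on water and −4.91, −4.46 and −3.69 on DSS. The GR iKO mice had −5.77, −5.21, −5.47 and −4.19 on water and −5.05, −4.71 and −4.07 on DSS. In each group the highest mouse was the one on slide 4, and the treatments overlapped in both genotypes. DSS minus water was 0.50 ± 0.42 in Flox mice (adjusted p = 0.341) and 0.55 ± 0.42 in GR iKO mice (adjusted p = 0.311). Within slides the GR iKO mice on DSS were higher by 0.75, 0.72 and 0.12, and with slide as a block the GR iKO difference was called (0.54, adjusted p = 0.0197). With spike-in scaling the differences were −1.62 (adjusted p = 0.00137) and −0.31 (adjusted p = 0.533).

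Hdc, which makes histamine from histidine, had the largest difference of the 7 tested members in both genotypes. On water it was steady, at −3.88, −3.82, −3.71 and −3.85 in Flox and −3.90, −3.49, −4.06 and −3.99 in GR iKO mice. On DSS it reached 1.47, 0.52 and −0.04 in Flox and 2.74, 1.35 and 3.27 in GR iKO mice. Every mouse on DSS lay above every mouse on water. DSS raised it by 4.46 ± 0.41 on the log2 scale in Flox mice (adjusted p = 4.99e-06) and by 6.31 ± 0.41 in GR iKO mice (adjusted p = 1.06e-06), and with spike-in scaling it was still 2.35 and 5.45.

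Between genotypes on water, none of the 7 tested members was called (0 by limma at an unadjusted p under 0.05 as well), where 0.00339% of all probes were called, and differences of the members other than Mcpt2 lay between −0.54 for Cma1 and 0.27 for Cpa3. On DSS, Hdc was the only member called, against 13.2% of all probes. It was 3.49-fold higher in GR iKO than in Flox mice (log2 difference 1.80 ± 0.43, adjusted p = 0.0217), although GR iKO DSS replicate 3 lay below Flox DSS replicate 1. On slides 1 and 4, which carried DSS mice of both genotypes, the difference was −0.12 and 3.31. The call was lost without Flox DSS replicate 2 (adjusted p = 0.0745), GR iKO DSS replicate 1 (0.0643) or GR iKO DSS replicate 4 (0.0566), and with slide as a block (0.0714). It was also lost when only the 6 DSS arrays were fitted (0.242), where 0 of 29523 probes were called. Every genotype call on DSS given here and below therefore rests on fits that also include the water arrays. The genotype by DSS interaction of Hdc was 1.85 ± 0.57 and was not called (adjusted p = 0.12), where 0.112% of all probes were called, and it was called without GR iKO DSS replicate 3 (2.40, adjusted p = 0.0192).

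No other member was called between genotypes on DSS. The differences were −0.49 ± 0.30 for Mcpt4, 0.05 ± 0.44 for Cma1, −0.63 ± 0.54 for Cpa3 and −0.26 ± 0.45 for Fcer1a (adjusted p from 0.296 to 0.958). In order of group means, Mcpt4 and Cpa3 both ran from Flox DSS through GR iKO DSS and GR iKO control down to Flox control, and of the neighboring pairs tested none was called, while the ends of the order were. Cma1 ran from Flox control through GR iKO control and GR iKO DSS down to Flox DSS, again with a call between the ends only. By the second Cma1 probe Flox DSS lay above GR iKO DSS, and only Flox DSS against Flox control was called. For Hdc the order was GR iKO DSS, Flox DSS, Flox control and GR iKO control, where only the last pair did not differ by a call.

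**Figure D3:**
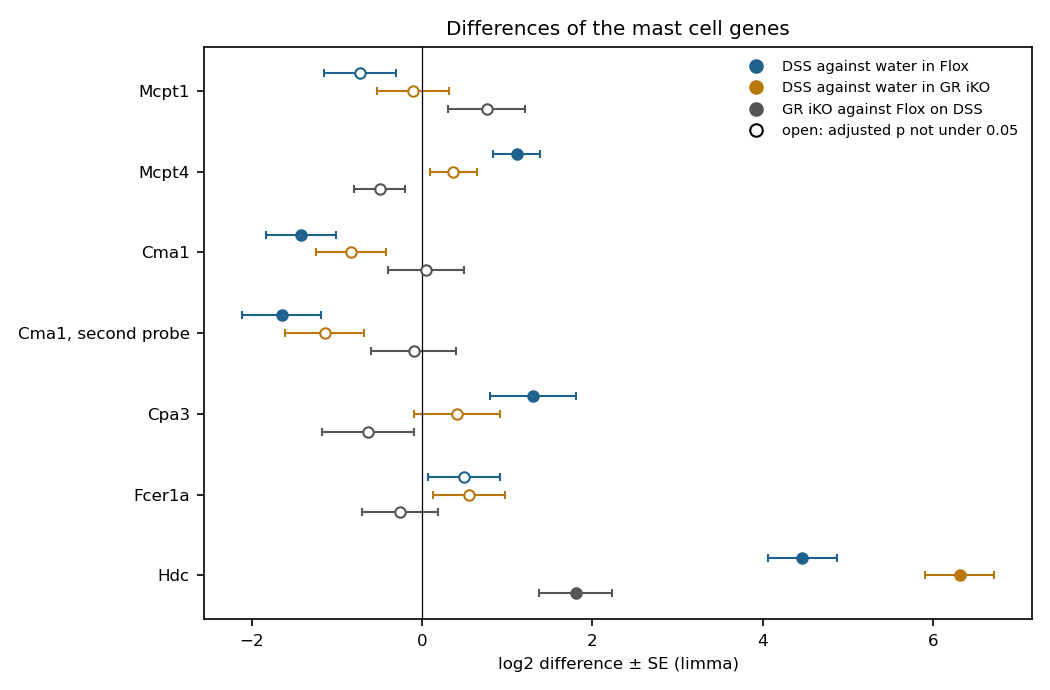
Log2 differences of the members with their SE from limma (x axis) for 6 of the 7 tested members (y axis, Cma1 with both probes). Colours give DSS against water in Flox, DSS against water in GR iKO, and GR iKO against Flox on DSS, and open points were not called. Mcpt4 and Cpa3 lay above 0 in Flox mice (below 0 with spike-in scaling, which is not plotted), Cma1 lay below 0, and the Hdc differences of 4.46, 6.31 and 1.80 were all called.

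Markers of other cells moved alongside these genes. Of the 8 tested neutrophil genes, 7 rose with DSS in Flox and 8 in GR iKO mice, and 4 were higher in GR iKO than in Flox mice on DSS. None of these 4 was called with only the 6 DSS arrays fitted. With spike-in scaling the rise of Mpo turned in Flox mice, where 5 genes were called higher and 1 lower. The mean level of the 8 genes, set to 0 at the average of the water arrays, ranged from −0.77 to 0.63 in Flox and −0.22 to 0.49 in GR iKO mice on water. On DSS it ranged from 3.97 to 4.85 in Flox and 5.88 to 7.48 in GR iKO mice. Relative to that mean within each array, Hdc differed by 0.10 between DSS and water in Flox (exact permutation test, p = 0.743) and by −0.30 in GR iKO mice (p = 0.457), and the groups overlapped. GR iKO against Flox on DSS gave −0.60 for this ratio (exact permutation test, p = 0.3), also with overlap. With 3 or 4 mice per group, a high p-value does not show that Hdc and the neutrophil genes track each other. This ratio was formed for no other cell type. The part of neutrophils in the Hdc difference was not tested. Of the basophil list, Mcpt8, the basophil-specific protease, and Cd200r3 were well above background on no array, and the 2 tested genes, of which Il3ra was called in both genotypes, had mean levels of 0.69 in Flox and 0.84 in GR iKO mice on DSS.

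Smooth muscle genes shared the direction of Mcpt4 and Cpa3 in the group means. All 7 rose with DSS in Flox mice and 1 did in GR iKO mice. All 7 were lower in GR iKO than in Flox mice on DSS, where neither Mcpt4 nor Cpa3 was called. With only the 6 DSS arrays fitted, none of the 7 was called. Their mean level ranged from −0.33 to 0.40 in Flox and −0.36 to 0.40 in GR iKO mice on water, and from 1.16 to 1.81 in Flox and −0.61 to 0.61 in GR iKO mice on DSS. With spike-in scaling 6 of the 7 Flox differences turned negative, as those of Mcpt4 and Cpa3 did. The 1 smooth muscle call in GR iKO mice, Smtn, turned as well. All 6 fibroblast genes rose with DSS in both genotypes, with mean levels of 1.30 to 1.73 in Flox and 1.01 to 1.24 in GR iKO mice. With spike-in scaling 5 of the 6 Flox differences turned, as did that of Pdgfra in GR iKO mice. Of 11 epithelial genes, 1 rose and 3 fell with DSS in Flox mice, with mean levels from −0.79 to 0.04. The rise, that of Krt20, turned with spike-in scaling. Of the 3 tested eosinophil genes, 2 fell in both genotypes. Of 6 macrophage genes 5 rose in each genotype, with mean levels on DSS of 0.72 to 1.71 in Flox and 0.96 to 1.68 in GR iKO mice against at most 0.37 on water, and all 5 Flox differences turned with spike-in scaling. Of 4 mesothelial genes 1, Wt1, was called, higher in both genotypes, with mean levels on DSS of 2.10 and 1.85. The part of these cell types in the members' differences was not tested.

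Within groups, deviations of each mouse from its group mean show which members vary together (Pearson r over 14 arrays, given as a description; the arrays share slides and scaling). The Cma1 probes followed each other (r = 0.97). Mcpt4 varied with Cpa3 (r = 0.72), with Fcer1a (0.46) and with the Cma1 probes (0.35 and 0.51), and without the 2 arrays farthest from the median these values were 0.53, 0.54, 0.47 and 0.59, so no order among them was stable. Mcpt1 varied with Fcer1a (0.71, and 0.47 without 2 arrays) and against the Cma1 probes (−0.51 and −0.36). For Hdc, r with the other tested members ran from −0.41 to 0.16. With the neutrophil mean it was 0.58 (0.29 without 2 arrays). It was −0.69 with the basophil, −0.68 with the eosinophil and −0.77 with the adipocyte mean (−0.64, −0.41 and −0.52 without 2 arrays). The 5 genes most like Cpa3 among 13289 well-measured genes were Cd36 (r = 0.87), a fatty acid receptor of fat and endothelium, Palmd (0.83), Aox1 (0.82), the water channel gene Aqp1 (0.81) and Maco1 (0.81). Cpa3 also varied with the mean of 4 adipocyte markers (r = 0.68), which ranged from 0.29 to 2.16 in Flox and from −2.04 to 0.91 in GR iKO mice on DSS, and against the neutrophil mean (−0.76). Those most like Mcpt1 were Tefm (0.91), Pgpep1 (0.88), Rab5b (0.88), Ankrd40 (0.88) and Dnajc17 (0.87). With the smooth muscle mean, r was 0.16 for Mcpt4 and 0.35 for Cpa3 (0.11 and 0.62 without 2 arrays).

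Other genes of mast cell granules and mediators were counted from a list of 14, of which 12 were tested, and Mcpt8 and Mcpt9 were not above background on any array. In Flox mice 4 rose and 4 fell with DSS, and in GR iKO mice 3 rose and 3 fell. Over all probes 24.4% rose and 28.2% fell in Flox and 22% rose and 22.5% fell in GR iKO mice, so these counts are near the background, and the list counts that follow are to be read against the same shares. The largest fall was in Tpsg1, a membrane-anchored tryptase, at −3.07 ± 0.61 in Flox mice (adjusted p = 0.00117) and −2.61 ± 0.61 in GR iKO mice (adjusted p = 0.00423). Slc18a2, the transporter that loads histamine and other amines into granules, rose by 2.39 ± 0.28 and 1.25 ± 0.28, and was lower in GR iKO than in Flox mice on DSS (−1.16 ± 0.30, adjusted p = 0.0283). Srgn, the granule proteoglycan core of many leukocytes, rose by 0.80 ± 0.30 and 2.54 ± 0.30 and was higher in GR iKO mice on DSS (1.41 ± 0.32, adjusted p = 0.0183). Thus, relative to the bulk of the probes, the histamine transporter and the proteoglycan core differed between genotypes in opposite directions. With spike-in scaling these directions stayed, but the genotype difference of Slc18a2 was no longer called.

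In the same list Alox5ap, needed for leukotriene synthesis, rose by 1.38 ± 0.23 and 2.16 ± 0.23, whereas Hpgds, the prostaglandin D2 synthase of hematopoietic cells, fell by 1.46 ± 0.47 and 1.42 ± 0.47 in Flox and GR iKO mice. Tph1, which makes serotonin and is also an enteroendocrine gene, fell by 1.46 ± 0.37 in Flox mice, and in GR iKO mice it was not called. Cma2, the chymase gene next to Cma1, was looked up after its values were seen. It rose by 1.24 ± 0.30 in Flox mice (adjusted p = 0.00434), with 0.15 ± 0.30 in GR iKO mice (adjusted p = 0.708), and so had the direction of Mcpt4 and not that of its neighbor Cma1. With spike-in scaling the Flox differences of Alox5ap, Cma2 and Srgn turned negative.

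**Figure D4:**
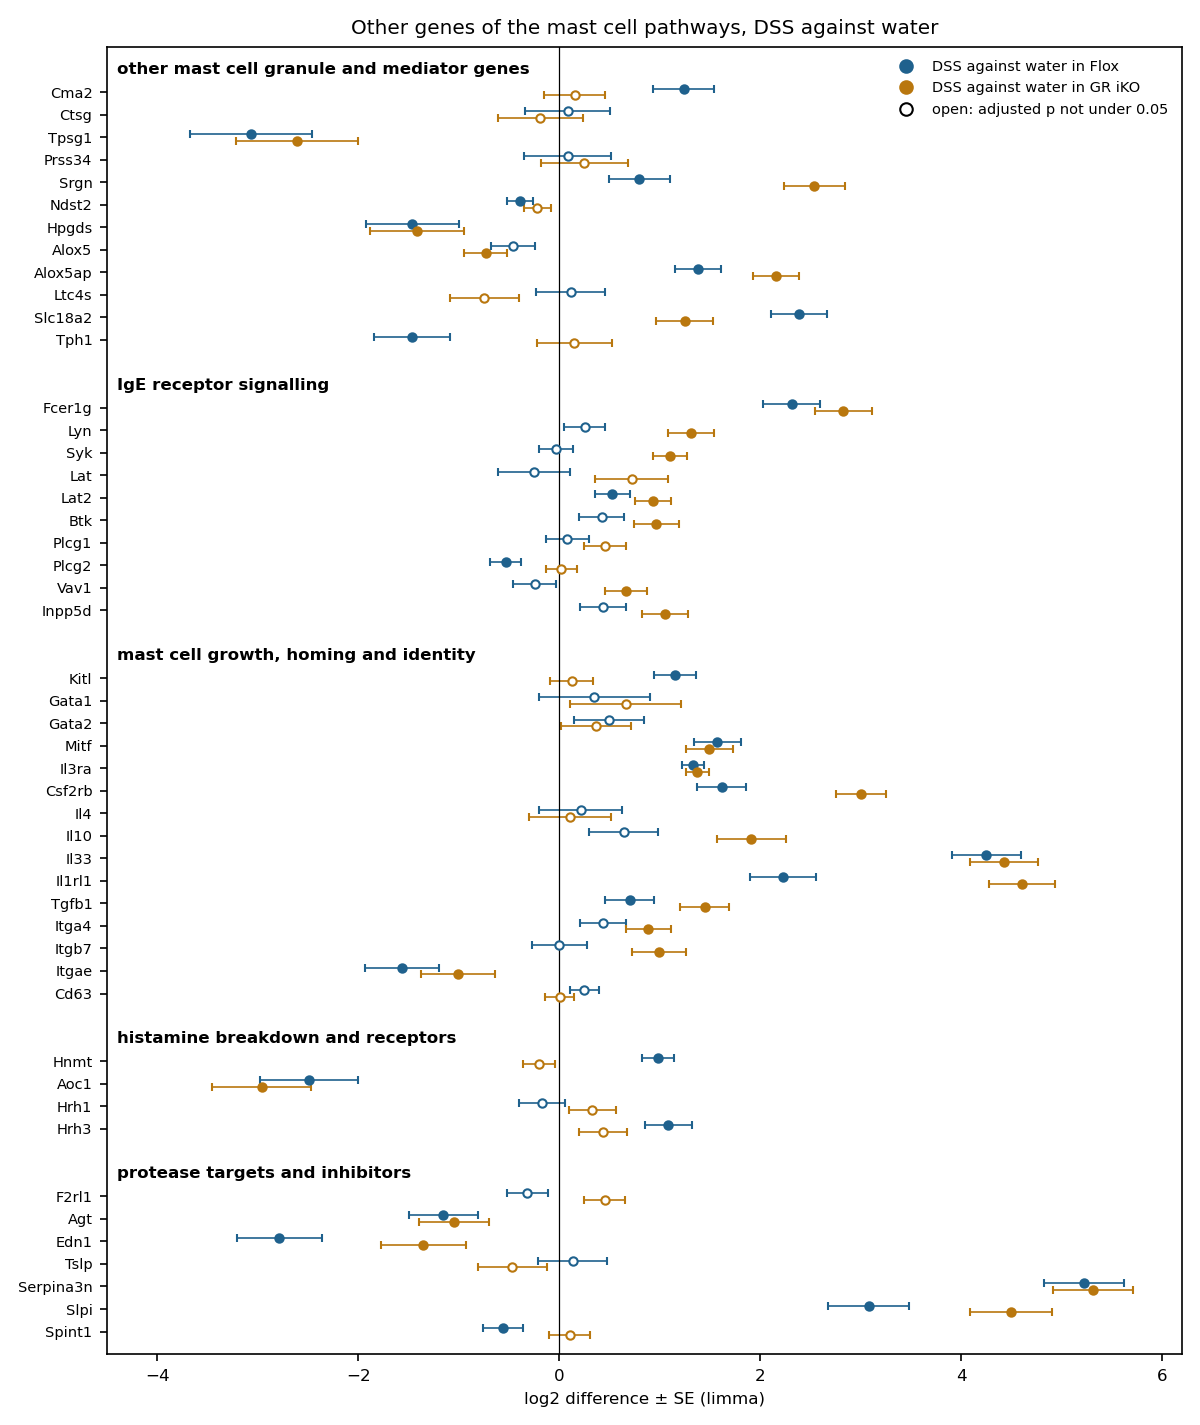
Log2 differences with SE from limma (x axis) for the tested genes of 5 lists around the mast cell members (y axis), comparing DSS with water for Flox and for GR iKO mice, with open points not called. Il33, Il1rl1, Serpina3n and Slpi had the largest rises, and Tpsg1, Aoc1 and Edn1 the largest falls.

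Of 10 tested genes of IgE receptor signaling, 2 rose and 1 fell in Flox mice, and 7 rose in GR iKO mice, where 22% of all probes rose. These counts depended on the scaling. With spike-in scaling 1 of the 10 was called higher in GR iKO mice and Vav1 turned direction there, while in Flox mice 0 were higher and 9 lower. The list medians were 0.17 in Flox and 0.95 in GR iKO mice. Fcer1g, the gamma chain shared with other Fc receptors and present in many myeloid cells, rose by 2.32 ± 0.28 in Flox mice (adjusted p = 3.7e-05) and 2.83 ± 0.28 in GR iKO mice (adjusted p = 1.59e-05). Lyn, Syk, Inpp5d and Btk, which act downstream of Fc receptors in many leukocytes, rose by 1.31, 1.10, 1.05 and 0.97 in GR iKO mice and were not called in Flox mice. Lyn and Syk were also higher in GR iKO than in Flox mice on DSS (1.07 ± 0.24, adjusted p = 0.0197, and 1.11 ± 0.18, adjusted p = 0.00718). Lat2 rose by 0.53 and 0.94 in the 2 genotypes, and its Flox difference turned with spike-in scaling. Fyn had no matched probe and Gab2 was not above background.

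Of 15 tested genes of mast cell growth, homing and identity, 7 rose and 1 fell in Flox mice, and 9 rose and 1 fell in GR iKO mice, with medians of 0.64 and 0.99. The 8 calls in Flox mice are near the 52.6% called over all probes. Il33, the epithelial and stromal alarmin, rose by 4.25 ± 0.34 (adjusted p = 2.11e-06) and 4.43 ± 0.34 (adjusted p = 2.99e-06). Il1rl1, its receptor ST2, rose by 2.23 ± 0.33 in Flox and 4.61 ± 0.33 in GR iKO mice, and was higher in GR iKO mice on DSS (2.33 ± 0.35, adjusted p = 0.00649). The interaction of Il1rl1 was not called (2.38 ± 0.47, adjusted p = 0.0596). Csf2rb, the common chain of the IL-3 receptor, rose by 1.62 and 3.01, and Mitf, a transcription factor of mast cells, rose by 1.57 and 1.50. Gata2, another such factor, was not called (0.50 ± 0.35 and 0.37 ± 0.35). Itgae, the integrin chain of intraepithelial lymphocytes and mucosal mast cells, fell by 1.56 ± 0.37 and 1.01 ± 0.37, and Il10 rose in GR iKO mice by 1.91 ± 0.35. With spike-in scaling 5 of the 8 Flox calls, those of Csf2rb, Il3ra, Kitl, Mitf and Tgfb1, turned direction. In GR iKO mice 3 genes were then called higher and 1 lower.

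Histamine handling was followed in 4 tested genes beside Hdc. Aoc1, the diamine oxidase that degrades histamine in the gut, fell by 2.49 ± 0.49 in Flox mice (adjusted p = 0.0011) and 2.96 ± 0.49 in GR iKO mice (adjusted p = 0.000482), the opposite direction to Hdc in both genotypes. Hnmt, which methylates histamine inside cells, rose by 0.99 ± 0.16 in Flox mice (adjusted p = 0.000293), the direction of Hdc, with −0.20 ± 0.16 in GR iKO mice (adjusted p = 0.343), and was lower in GR iKO than in Flox mice on DSS (−1.07 ± 0.17, adjusted p = 0.00718). Its interaction was −1.18 ± 0.23 (adjusted p = 0.0596). The receptor gene Hrh3 rose by 1.09 ± 0.24 in Flox mice and was not called in GR iKO mice. With spike-in scaling, Hnmt and Hrh3 turned direction in Flox mice on DSS and between genotypes on DSS. Hrh2 had no matched probe and Hrh4 was not above background.

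Among 7 tested protease inhibitors and targets, 2 rose and 3 fell in Flox mice, and 2 rose and 2 fell in GR iKO mice, with medians of −0.32 and 0.11, where 52.6 and 44.5% of all probes were called. The inhibitor genes Serpina3n (5.23 ± 0.40 and 5.31 ± 0.40) and Slpi (3.08 ± 0.41 and 4.50 ± 0.41) rose in both genotypes, and Spint1 fell by 0.56 ± 0.20 in Flox mice. Edn1, whose peptide is degraded by mast cell proteases, fell by 2.79 ± 0.42 and 1.35 ± 0.42, and Agt, the precursor of the angiotensin peptides that chymases cleave, fell by 1.15 ± 0.35 and 1.05 ± 0.35. All calls of this list kept their direction with spike-in scaling.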

How the data were processed

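Arrays were Agilent whole mouse genome 1-color arrays, each with Cy3-labelled cRNA made from 500 ng of colon RNA. The authors extracted spot intensity values with Agilent Feature Extraction 12.0.0.7 (per the file headers), and the deposited scanner output holds background-subtracted, detrended intensity with no scaling between arrays. A deposited table of log2 values of the same arrays, which the authors made with Partek 6.6 per the labels, was used as an alternative only, and its normalization is not given in the sources used here. Control spots and flagged outlier spots were left out, spots of a probe were averaged on the log2 scale, and each array's 75th percentile was subtracted. Probes well above background on at least 3 of 14 arrays were tested (29523 of 41174). Of 29245 probes with a RefSeq accession, 28223 were matched to a gene symbol.

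The 4 groups were fitted together with limma 3.58.1 (R 4.3.3) without covariates, with Benjamini-Hochberg adjustment over all tested probes. Single values per array were compared by exact two-sided permutation of group means (Python 3.11.15). Groups and replicate numbers came from the labels, which name separate mice by group only as replicates, so p-values measure the spread between these samples. The members and gene lists were chosen with earlier results of these data known. Every member was named, without differences for Mcpt2, which was above background on 3 arrays. From each list, up to 6 called genes with the largest DSS difference were named, besides Kit, Gata2, Fcer1g, Mcpt8, Il33, Il1rl1 and Hnmt, and for Mcpt1 and Cpa3 the 5 genes with the highest r. Normexp used median spot signals. Slide was read from the scanner files. On simulated arrays with 100 probes changed by 1 and 100 by 2 log2 units between Flox DSS and Flox control among 29426 probes, 44% and 85% were recovered, with 3 false calls. The simulated spread of a probe was the same in all groups, whereas the real DSS groups varied more. In the real comparison 52.6% of probes were called, so these rates do not carry over to it. The number of arrays limits the precision.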

Additional observations from a re-analysis of the deposited data

How the results depend on the processing

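The count of called members in the Flox comparison of DSS with water, and on water between genotypes, stayed within 1.5 times under all alternatives run. In GR iKO mice the DSS count rose from 1 to 2 with spike-in scaling (Cma1 added) and with slide as a block (Fcer1a added). Between genotypes on DSS the count was 2 with spike-in scaling (Mcpt1 added), 0 when only the compared arrays were fitted, with water and DSS arrays weighted separately, or with slide as a block, and 0 to 1 with each array left out. For the interaction it was 3 with spike-in scaling (Hdc, Mcpt1 and Mcpt2), 1 with array quality weights (Hdc), and 0 to 1 with each array left out. A dimmer Nr3c1 probe gave −1.07 on water and −0.40 on DSS in place of −0.80 and −0.83.

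Spike-in scaling turned Mcpt4 to −1.0 and Cpa3 to −0.80 and Fcer1a to −1.62 in Flox, Mcpt4 to −0.49, Cpa3 to −0.45 and Fcer1a to −0.31 in GR iKO mice, Mcpt4 to 0.62, Cpa3 to 0.49 and Fcer1a to 0.86 between genotypes on DSS, and the Mcpt4 interaction to 0.51. Normexp turned Mcpt1 to 0.19 in Flox, to 0.08 in GR iKO mice and to −0.04 between genotypes on DSS, and Cma1 to −0.07 there. Array quality weights turned Mcpt1 to 0.34 in GR iKO mice, and on DSS between genotypes Cma1 to −0.17 and Fcer1a to 0.20. Averaging both Cma1 probes gave −0.02 there. With each array left out, Mcpt1 in GR iKO mice ranged from −0.50 to 0.26, and on DSS between genotypes Cma1 from −0.28 to 0.47 and Fcer1a from −0.54 to 0.07. None of these values was called except those of Mcpt4 and Fcer1a in Flox mice with spike-in scaling. The causes were not tested.

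Cpa3 in Flox mice was also not called with quantile normalization (1.09, adjusted p = 0.0974), the deposited value table (0.0972), no filter on dim probes (0.0588), only the compared arrays (0.0709) or separate weights (0.0623). Fcer1a in Flox mice was called with normexp (0.59, adjusted p = 0.0335). With the replicate block the counts of called members were 5 in Flox (Mcpt1 added, −0.81, adjusted p = 0.0485), 1 in GR iKO mice, 0 on water, 1 on DSS and 0 for the interaction, and it changed no other call of the members. Correlations of deviations were over 0.1 in 7 of 12 pairs sharing number and slide (median 0.14), 2 of 6 sharing the number only, 2 of 6 sharing the slide only and 9 of 49 sharing neither (median −0.03), and 6 of 14 arrays were most like an array of another group with their own number. Since not every pair exceeded 0.1, the numbers were not used as a pairing. Cpa3 and Fcer1a were well above background on 12 of 14 arrays, which limits their precision.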
